A study of Drosophila melanogaster with 35 samples.

Results

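RNA from heads of male flies that carried human TREM2R47H and TYROBP in glia was set against RNA from heads of driver-matched control flies. These are 6 of the 35 libraries of a Drosophila head series, 3 of each genotype, and all 14279 genes of the deposited table were followed in them. By the labels the TREM2R47H/TYROBP flies carried 1 copy of LexAop2-TREM2-R47H,TYROBP with elav-gal4,Repo-LexA, and the control flies were elav-gal4,Repo-LexA/Y. Both genotypes were 1 week old and both carried the neuronal driver elav-GAL4, which had no UAS transgene to act on here, and the pan-glial driver Repo-LexA. The control carried no LexAop2 insertion, so the insertion itself and the chromosome it sits on cannot be told apart from the 2 human proteins. Per the study's methods each genotype was a pool of many heads. Nothing in the sources says that the 3 libraries came from separate cultures, so p-values measure the spread between these libraries, which may be technical. The series asked what the human receptor and its risk variant do in fly heads, with and without the Aβ42 or tau of Alzheimer's disease models.

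TREM2 is a receptor of microglia that binds lipids and lipoproteins and signals through the adaptor TYROBP (also called DAP12), whose phosphorylated tail recruits the kinase SYK. The R-to-H change in its ligand-binding domain weakens ligand binding and raises the risk of Alzheimer's disease. Flies have no clear ortholog of either protein. Fly glia clear debris through Draper, a receptor with a similar signalling motif, and the kinase Shark, a relative of SYK. The human transcripts are not among the fly genes of the table and were not analysed here, so the expression of the constructs was not checked.

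The deposited values are log2 CPM (library-scaled read counts) from which the authors had removed a slope on RIN, the integrity number of the RNA. RIN was 7.1, 7.1 and 6.9 in the TREM2R47H/TYROBP libraries and 6.8, 6.4 and 6.4 in the control libraries, with no overlap. RIN was therefore also a term of the limma model, and every level below is a log2 CPM value at equal RIN, so that the difference of 2 genotype means is the fitted log2 fold change. A level of 0 is 1 CPM, and levels of about -4 and below stand for few or no reads, where a fold change has no firm size. The depth of the libraries is unknown, since the table holds no counts. Markers of the cell types of a head were checked by their summed levels and their calls. The summed level of 6 neuronal markers was 3516 to 4106 CPM in TREM2R47H/TYROBP heads and 3512 to 3683 CPM in control heads, and among them nrv3 was upregulated (0.31) and brp downregulated (-0.32). That of 6 glial markers was 1638 to 1716 CPM in TREM2R47H/TYROBP heads and 1579 to 1615 CPM in control heads, with 0 called and 1 at an unadjusted p under 0.05. None of the 6 photoreceptor, 6 muscle and 7 fat body markers was called by limma, with 3, 0 and 1 at an unadjusted p under 0.05. Among 8 hemocyte markers He was upregulated and srp and NimC1 were downregulated, while the summed level was 834 to 881 CPM in TREM2R47H/TYROBP heads and 936 to 958 CPM in control heads, with no overlap.

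The control libraries were not alike in yolk protein RNA, which females make. Yp2 stood at 1.37, 1.31 and 1.21 in TREM2R47H/TYROBP heads, against 6.18, 6.08 and 1.57 in control heads. Control replicates 1 and 2 were high and control replicate 3 lay near the other genotype. Yp1 had the same pattern, at 0.97, 0.74 and 0.76 in TREM2R47H/TYROBP heads and 5.53, 5.46 and 0.95 in control heads, and so did Yp3, at 5.66, 5.56 and 5.53 against 7.62, 7.44 and 5.70. All 3 were called downregulated, but with control replicate 3 as the only control the changes were 0.03 for Yp1, -0.12 for Yp2 and -0.05 for Yp3. These levels also rest on the RIN term: as deposited, Yp2 was 3.61, 3.55 and 2.31 in TREM2R47H/TYROBP heads and 6.72, 4.34 and -0.17 in control heads. The eggshell genes Cp15, Cp36 and Vm26Ab were below -3.8 in all 6 libraries, and the male dosage compensation RNAs roX1 and roX2 were not called. Their sum with msl-2 was 3523 to 3879 CPM in TREM2R47H/TYROBP heads and 3236 to 3391 CPM in control heads. This order rests on the RIN term too. As deposited, roX1 was 10.60, 10.65 and 11.23 in TREM2R47H/TYROBP heads and 11.25, 12.31 and 12.25 in control heads. Without the RIN term roX1 changed by -1.11 and roX2 by -1.31, and neither was called. Because of the yolk protein difference, counts of most gene groups below are also given with control replicate 3 alone as control. That fit holds no spread between control libraries.

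The presence of the constructs was accompanied by 630 differentially expressed genes (DEGs), 274 upregulated and 356 downregulated. A DEG had an adjusted p (limma, Benjamini-Hochberg over 14279 genes) under 0.05 and a fold change above 1.2, and 4.41% of all genes met this, 1.92% by rising and 2.49% by falling. Most changes were small. The median absolute log2 fold change of the DEGs was 0.46, 339 of them changed by less than 0.5, and 65 rose and 74 fell by more than 1. The libraries of the genotypes did not overlap in 622 DEGs, and in 30.0% of all genes. With control replicate 3 alone the count was 284, of which 226 were among the 630 with the same direction, and 629 of the 630 kept their sign. The smallest p that exact permutation of 3 and 3 libraries allows is 0.1, so the calls rest on a spread estimated over all 35 libraries. In a fit of these 6 libraries by themselves limma called 0 genes, with 1102 at an unadjusted p under 0.05 (2982 in the fit of 35 libraries).

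**Figure D1:**
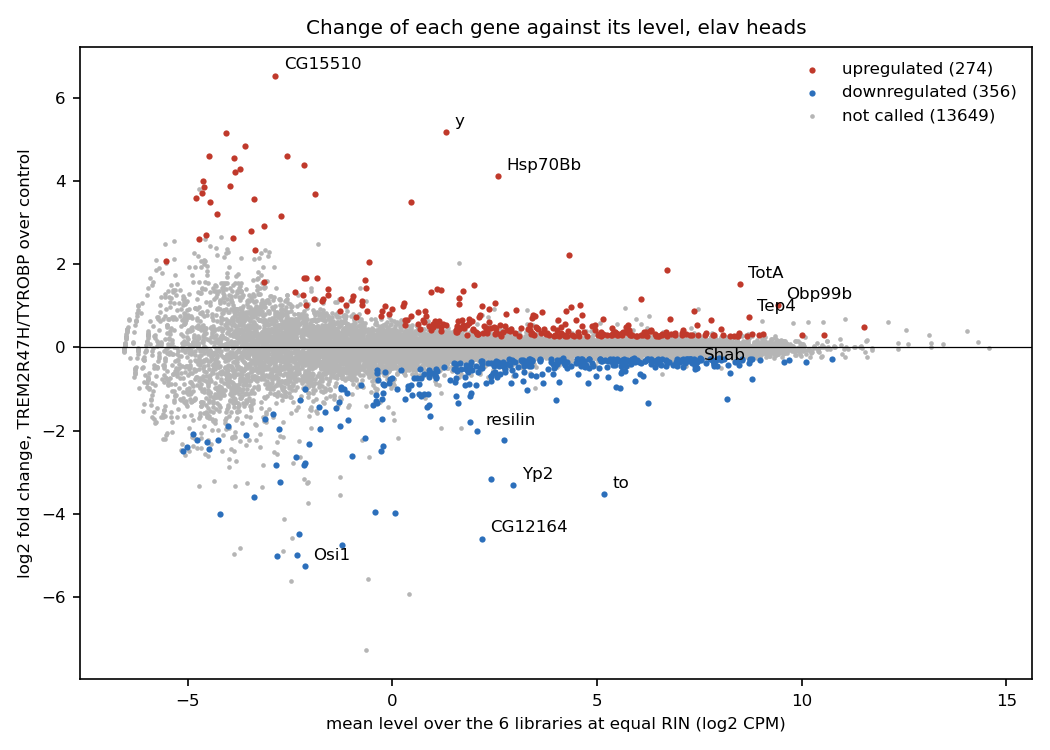
Log2 fold change of TREM2R47H/TYROBP over control for each of 14279 genes (y axis) against its mean level at equal RIN in log2 CPM (x axis), with upregulated DEGs in red, downregulated DEGs in blue and other genes in grey. The changes above 4 in size lie mostly at levels below 0, with the rises of y and Hsp70Bb and the fall of CG12164 at higher levels.

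Of all genes Hsp70Bb and y had the smallest adjusted p. The cuticle pigmentation gene y (yellow, FBgn0004034, X from 356509 to 361245) was at 3.84, 3.93 and 3.91 in TREM2R47H/TYROBP heads, against -1.40, -0.99 and -1.47 in control heads. All 3 transgenic libraries were high, and the rise was 5.18 on the log2 scale (standard error 0.10) with an adjusted p of 2.72e-21. Hsp70Bb, which encodes the inducible chaperone Hsp70 (FBgn0013278, 3R from 12505793 to 12508139), was at 4.75, 4.45 and 4.73 in TREM2R47H/TYROBP heads, against 0.49, 0.61 and 0.46 in control heads, which is 4.12 on the log2 scale (standard error 0.08) with an adjusted p of 1.58e-21. The other 5 Hsp70 copies were not called, with changes of -0.21 to 0.77. These copies are nearly identical, so reads may have been split between them, and which copy was raised is uncertain. None of 12 other cytosolic heat shock genes met both thresholds, with 5 at an unadjusted p under 0.05. Their smallest limma adjusted p was 0.0293, at a change under the fold threshold. The eye pigment transporter w, which fly constructs often carry as a marker, changed by 0.21 (adjusted p = 0.00180), which is under the fold threshold. Like w, y and the Hsp70 genes were listed as checks of the constructs, with earlier results of these data known. Whether their reads came from the inserted DNA, the fly stock or a response of the genes themselves was not tested.

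The rise of largest fitted size belonged to CG15510 (FBgn0039707, 3R from 29835950 to 29837447, named Prtl99C, a protamine-like protein of sperm chromatin, in the Ensembl annotation). It was at 0.43, 0.16 and 0.62 in TREM2R47H/TYROBP heads and -4.66, -6.59 and -7.12 in control heads, so the gene was near 1 CPM in the first genotype and at few or no reads in the second. Its fitted change of 6.53 (adjusted p = 3.77e-05) has no firm size. CG13083 was at 2.67, 2.80 and 2.74 in TREM2R47H/TYROBP heads, against 1.34, 1.24 and 1.13 in control heads, 1.5 higher (standard error 0.11) with an adjusted p of 2.08e-09. Desi (Desiccate, a gene of the larval epidermis that protects against drying) was at 0.45 ± 0.15 in TREM2R47H/TYROBP heads and -1.60 ± 0.25 in control heads (SD, n = 3 each), a change of 2.05. The non-coding RNA CR46015 rose too, at -0.09, 0.26 and -0.10 in TREM2R47H/TYROBP heads against -3.80, -5.43 and -3.84 in control heads. CG31391 (1.62) and CG33655 (1.42) were the other named rises at low levels. CG13492 (3.50, standard error 0.99) was spread widely, with control libraries at -2.80, -1.92 and 0.85 beside 1.78, 2.92 and 1.95 in TREM2R47H/TYROBP heads, and with control replicate 3 alone it changed by 1.22 and was not called.

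Of the downregulated genes, members of the takeout family had large changes. The gene to (takeout, an output gene of the circadian clock that acts in feeding, FBgn0039298, 3R from 25240180 to 25241668) was at 3.51, 3.17 and 3.55 in TREM2R47H/TYROBP heads, against 6.80, 7.15 and 6.85 in control heads. The genotypes were far apart, at -3.52 on the log2 scale (standard error 0.20) or 11.5-fold lower, with an adjusted p of 2.03e-11. Its neighbour CG11854 (FBgn0039299, 3R from 25242020 to 25243262) was at -2.60, -3.03 and -1.58 in TREM2R47H/TYROBP heads, against 1.53, 1.60 and 1.53 in control heads, at -3.95 on the log2 scale (adjusted p = 6.22e-06). The third listed gene, CG11852, did not pass the test, at 1.68, 1.85 and 1.43 in TREM2R47H/TYROBP heads and 1.35, 1.71 and 1.90 in control heads. CG2650 (FBgn0000092, X from 2692732 to 2693886, named dyw in Ensembl) was at 1.72, 1.70 and 1.45 in TREM2R47H/TYROBP heads and 3.80, 3.75 and 4.01 in control heads, a change of -2.23 (standard error 0.18). Of the other 10 genes of the clock list, the core clock genes per, tim, Clk and cyc among them, limma called none.

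CG12164 (FBgn0033158, 2R from 7311395 to 7313495) fell more than the takeout genes did. It was at 0.18, -0.16 and -0.35 in TREM2R47H/TYROBP heads, against 4.32, 4.41 and 4.73 in control heads, at -4.59 on the log2 scale (standard error 0.32) or 24.2-fold lower, with an adjusted p of 1.24e-09. CG4017 was at -1.92 ± 0.51 in TREM2R47H/TYROBP heads and 2.06 ± 0.02 in control heads (SD, n = 3 each), a change of -3.98. Ance-2, of the angiotensin-converting enzyme family, was at -3.25, -4.72 and -2.85 in TREM2R47H/TYROBP heads against 0.93, 1.10 and 1.43 in control heads. The lower values of Ance-2 stand for few reads. CG12009 (-2.61, adjusted p = 0.0312) was also among the 12 largest falls, but its call was lost when any library other than TREM2R47H/TYROBP replicate 3 was left out, with an adjusted p of up to 0.0972.

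**Figure D2:**
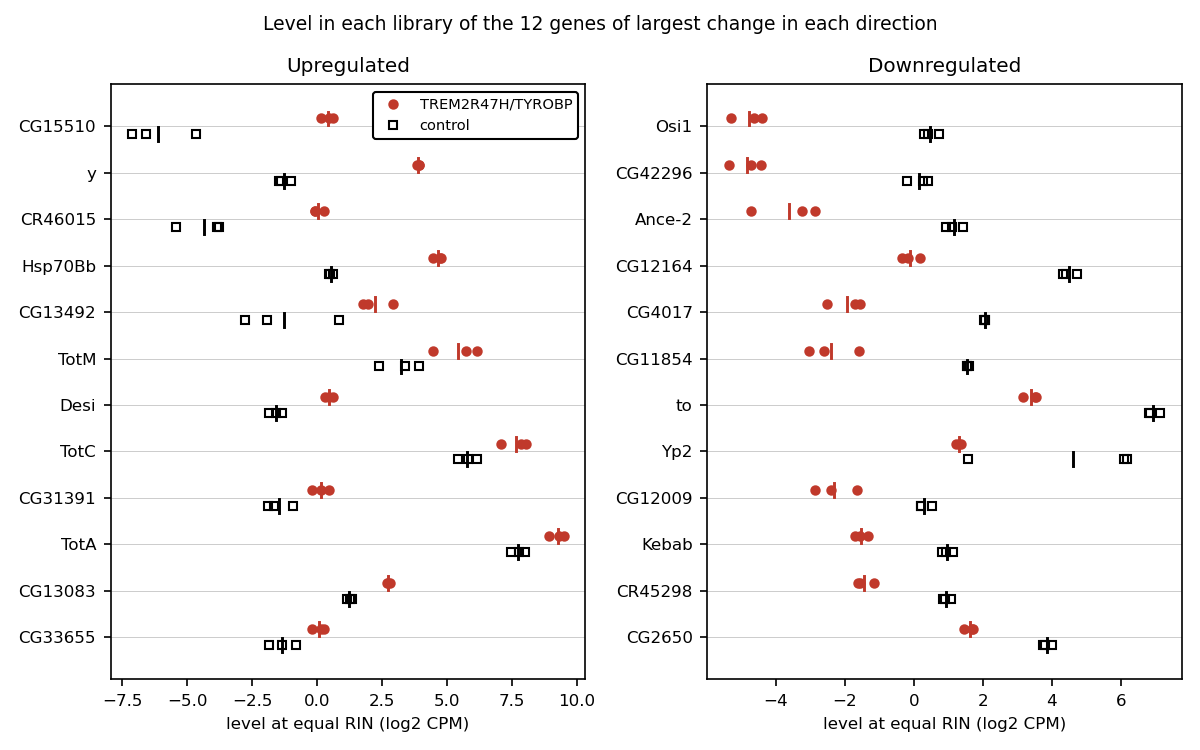
Level at equal RIN (x axis, log2 CPM) in each TREM2R47H/TYROBP library (red dots, upper row of each gene) and each control library (open squares, lower row), with bars at the means, for the 12 upregulated and 12 downregulated genes of largest change with a mean of at least 0 in either genotype. The genotypes do not overlap in any of the 24 by the rule that chose them, while Yp2 has 2 control libraries at about 6 and the third at 1.57.

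Groups of genes were counted next, by role, each against the 4.41% of all genes called and the median change of -0.01 over all genes. The main counts come from all 35 libraries, so spread and RIN slope rest on GMR heads too. In a fit of the elav libraries alone limma called 0 of 6 Turandot, 0 of 23 chitin and 0 of 19 potassium channel genes. It also called 0 of 11 sodium and calcium channel and 0 of 16 vesicle release genes, while all 630 DEGs kept their sign. Of 83 cytochrome P450 genes it called 5 higher and 1 lower, and of 83 cuticle genes 1 and 4. The Turandot genes, secreted peptides made under stress downstream of JAK/STAT signalling, had 4 of 6 members upregulated and a median change of 1.69. TotA was at 9.49, 8.93 and 9.32 in TREM2R47H/TYROBP heads, against 7.76, 7.44 and 7.98 in control heads, 1.52 higher (standard error 0.26) with an adjusted p of 0.000547. TotC was at 8.04, 7.06 and 7.82 in TREM2R47H/TYROBP heads, against 5.78, 5.42 and 6.14 in control heads (1.86, adjusted p = 0.00611). TotM was at 5.72, 4.45 and 6.13 in TREM2R47H/TYROBP heads and 3.36, 2.37 and 3.91 in control heads (2.22, adjusted p = 0.0414), and TotB was at low levels in both (3.15, adjusted p = 0.0205). TotX changed by 0.75 and TotF by -0.23, and neither passed. With control replicate 3 alone none of the 6 was called, with TotA at 1.27 (adjusted p = 0.0656). Of 12 genes listed for JAK/STAT signalling, CG9989 rose (0.46) and the short receptor et fell (-0.31). The others, the kinase hop and Stat92E among them, were not called. The changes of the 12 ran from -1.66 to 2.04, with 9 at an unadjusted p under 0.05. Without the RIN term limma called 0 of them.

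Few other immune genes were called, where 4.41% of all genes were, and lists this short hold few calls at that share. Some also varied widely between libraries. The summed level of the Attacin list below was 277 to 582 CPM in TREM2R47H/TYROBP heads and 304 to 516 CPM in control heads. None of 7 Drosomycin and Metchnikowin genes, none of 12 Attacin, Diptericin, Cecropin, Drosocin and Defensin genes, and none of 17 genes of the Toll and NF-kappaB pathways was called by limma, with 1, 0 and 4 of them at an unadjusted p under 0.05. Drs, the antifungal peptide Drosomycin, was at 5.22, 6.72 and 4.13 in TREM2R47H/TYROBP heads and 4.02, 4.51 and 5.80 in control heads, which overlap. Toll-4 changed by 0.55 (adjusted p = 0.146). A few secreted immune proteins did change. Tep4, a complement-like thioester protein, was at 9.13, 9.03 and 9.08 in TREM2R47H/TYROBP heads, against 8.25, 8.44 and 8.33 in control heads, 0.74 higher (standard error 0.07) with an adjusted p of 9.67e-08, while the 5 other members of its list were not called. The peptide gene IM14 (named Dso2 in Ensembl) rose by 0.67 (adjusted p = 0.014, and 0.135 with control replicate 3 alone), and IM1 missed the threshold at 0.48 (adjusted p = 0.0617). The recognition protein PGRP-SD was at 6.24 ± 0.17 in TREM2R47H/TYROBP heads and 6.57 ± 0.12 in control heads (SD, n = 3 each), a change of -0.33 (adjusted p = 0.0431). It lost its call when any of 4 single libraries was left out, and with the replicate number as a block (adjusted p = 0.0621).

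The transgenes act in glia. Of the listed genes of glia 0% and of engulfment 6.25% were called, beside 4.41% of all genes, so in lists this short neither share stands apart. None of 17 genes of glial identity and transport was called by limma, with changes of -0.18 to 0.11 and 4 at an unadjusted p under 0.05. The glial homeobox gene repo was at 6.84, 6.80 and 6.70 in TREM2R47H/TYROBP heads and 6.89, 6.80 and 6.83 in control heads. Of 16 engulfment and scavenger receptor genes, drpr (Draper), ced-6 and shark included, only NimC1 was called, and with control replicate 3 alone limma called 0. The changes of these 16 genes ran from -1.32 to 0.14, with 5 at an unadjusted p under 0.05. NimC1, a phagocytosis receptor of hemocytes, was at 4.60, 4.58 and 4.74 in TREM2R47H/TYROBP heads, against 5.43, 5.30 and 5.24 in control heads (-0.68, standard error 0.12, adjusted p = 0.000895). With it fell the hemocyte transcription factor srp (-0.37), while the hemocyte markers Hml, eater and Sr-CI were not called and He, at about 1 CPM, rose by 0.76. In bulk heads fewer hemocytes and less RNA per hemocyte cannot be told apart. No gene met both thresholds among 13 chaperone and unfolded protein response genes of the endoplasmic reticulum or among 13 glycolysis genes, with 3 and 6 at an unadjusted p under 0.05. The glycolysis genes changed by -0.24 to -0.02, with a median of -0.10. Their smallest limma adjusted p was 0.0126, at a change under the fold threshold.

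Enzymes that clear foreign compounds changed in both directions. Of 83 cytochrome P450 genes 12 were upregulated and 5 downregulated, with a median of -0.00296 (8 and 2 with control replicate 3 alone). Cyp4p2 was at 4.93, 5.14 and 5.20 in TREM2R47H/TYROBP heads, against 4.18, 4.13 and 3.88 in control heads, 1.03 higher (standard error 0.08) with an adjusted p of 1.26e-08. Cyp6d2 (1.04), Cyp6a14 (0.81) and Cyp6a2 (0.69) also rose, and Cyp4d1 (-0.67) had the largest called fall of the family. Cyp6a15Psi, annotated as a pseudogene beside Cyp6a14, rose by 0.99. Of 35 glutathione transferase genes, which conjugate glutathione to reactive compounds, GstD2 (1.19), GstD3 (0.88) and GstD9 (0.29) rose and none fell (2 rose with control replicate 3 alone). The raised RNA CR46015 lies at 3R from 12370507 to 12371099, just before GstD2, which starts at 12371971. Of 18 UDP-glycosyltransferase genes 5 fell and 1 rose, with a median of -0.36 (2 and 0 with control replicate 3 alone). That median rests partly on low levels, since 12 of the 18 had a mean of at least 0 in either genotype. With 1 added before log2 it was -0.10. Ugt86Dd was at 4.35, 4.39 and 4.33 in TREM2R47H/TYROBP heads, against 5.14, 5.32 and 5.21 in control heads (-0.87, standard error 0.11, adjusted p = 9.13e-06), while Ugt86Dc of the same cluster rose by 0.80.

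Genes of the cuticle and of chitin were mostly lower where they changed. Of 83 cuticle protein genes 10 were downregulated and 3 upregulated, with a median of -0.23, and their summed level was 535 to 595 CPM in TREM2R47H/TYROBP heads and 815 to 894 CPM in control heads. That median rests largely on low levels, since 34 of the 83 had a mean of at least 0 in either genotype. With 1 added before log2 it was -0.04. The elastic protein gene resilin was at 1.15, 0.96 and 1.11 in TREM2R47H/TYROBP heads, against 2.95, 2.97 and 3.32 in control heads (-2.01, standard error 0.17, adjusted p = 2.54e-08). Cpr66D (-1.78), Cpr64Aa (-1.66) and Cpr92F (-1.33) also fell. With control replicate 3 alone 9 cuticle genes were lower and 0 higher. Of 23 genes of chitin synthesis, modification and binding 7 fell and none rose, with a median of -0.34 (3 with control replicate 3 alone). Among them were the chitin-binding protein gene obst-B (-1.17), the mucin genes Muc96D (-1.97) and Mur2B (-0.68), and the chitinase gene Cht6 (-0.44). Of the 20 Osiris genes, which are expressed in cells that secrete cuticle, 4 fell and none rose (1 fell with control replicate 3 alone). Osi1 (FBgn0037406, 3R from 6173549 to 6174971) had the largest fall of all DEGs, at -5.28, -4.64 and -4.40 in TREM2R47H/TYROBP heads and 0.29, 0.40 and 0.74 in control heads (-5.25, adjusted p = 1.92e-05), and since the first stand for few or no reads the size is not firm. Osi19, Osi6 and Osi7 were below 0 in all 6 libraries.

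A minority of potassium, sodium and calcium channel genes was called, all of them downregulated. At an unadjusted p under 0.05 were 9 of 19 potassium channel genes and 9 of 11 sodium and calcium channel genes. The changes of these 11 ran from -0.43 to -0.02, with a median of -0.17. Their summed level was 2785 to 3026 CPM in TREM2R47H/TYROBP heads and 3239 to 3512 CPM in control heads. Of 19 potassium channel genes 4 were downregulated and none upregulated. Shab, a delayed rectifier channel, was at 7.11, 7.19 and 7.24 in TREM2R47H/TYROBP heads, against 7.54, 7.73 and 7.62 in control heads (-0.45, standard error 0.09, adjusted p = 0.00279). The other 3 were eag (-0.36), Sh (-0.30, the A-type channel Shaker) and the calcium-activated channel gene SK (-0.28), while the median of the list was -0.05. The count was 2 without TREM2R47H/TYROBP replicate 1 or without control replicate 2. With control replicate 3 alone none was called, although the changes were of the same size, with Shab at -0.45 (adjusted p = 0.0618) and Sh at -0.29. Of 11 sodium and calcium channel genes unc80 (-0.43), Ca-alpha1T (-0.42) and the voltage-gated sodium channel gene para (-0.27) fell, and with control replicate 3 alone 2 of the 11 did. The glutamate receptor subunit gene Nmdar2 was at 5.14, 5.23 and 5.35 in TREM2R47H/TYROBP heads, against 5.49, 5.76 and 5.73 in control heads (-0.42, standard error 0.09, adjusted p = 0.00657), and GABA-B-R3 fell by 0.29 on the log2 scale. Of 16 genes of synaptic vesicle release the active zone genes brp (-0.32) and Rim (-0.29) fell and Snap25 rose (0.31), against 1 fall and 0 rises with control replicate 3 alone. Of 9 nicotinic acetylcholine receptor genes, which also encode ion channels, nAChRalpha4 rose and nAChRbeta1 fell, with changes of -0.27 to 0.29 over the list. The neuronal marker elav changed by 0.03 and was not called. Shab had the largest of these changes, at 1.37-fold lower.

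**Figure D3:**
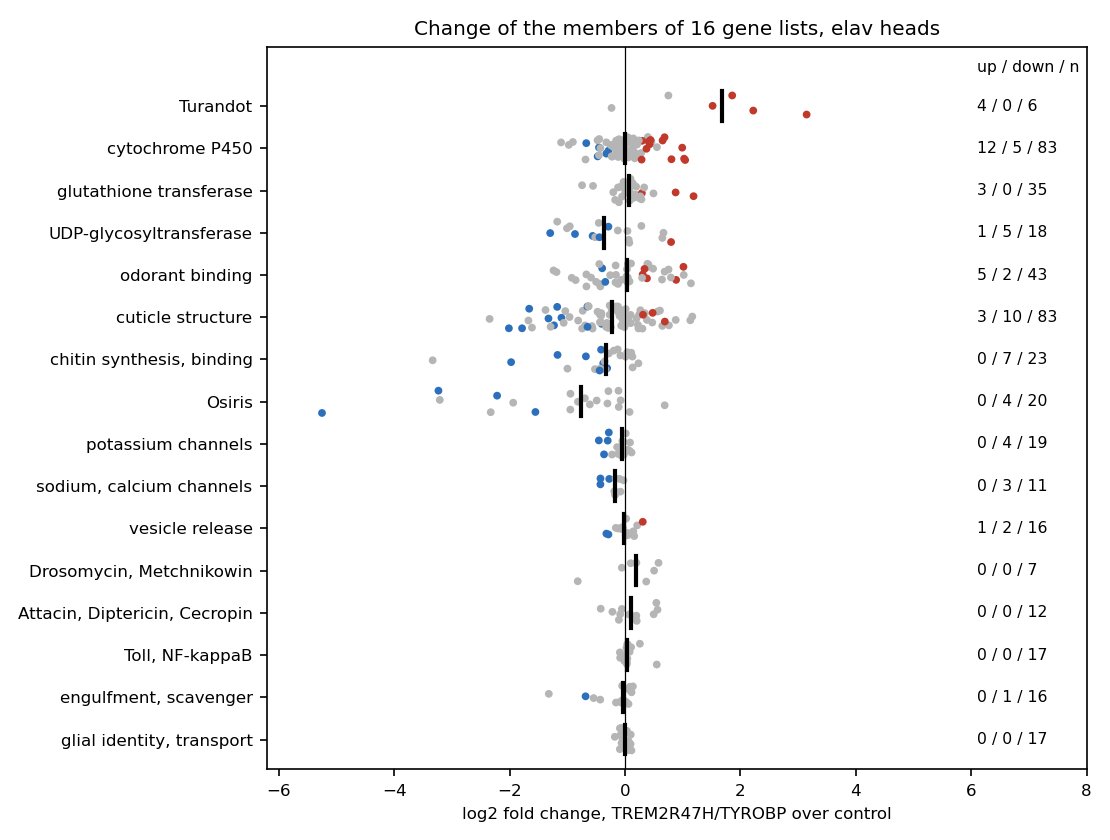
Log2 fold change of TREM2R47H/TYROBP over control (x axis) for every member of 16 gene lists, one row per list, with upregulated members in red, downregulated in blue, others in grey and the list median as a black bar. The numbers at the right give the members upregulated, downregulated and measured, from 4, 0 and 6 for Turandot to 0, 0 and 17 for glial identity and transport.

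Odorant-binding proteins carry small molecules in the fluid of sensory hairs and, for some members, in the blood. Of 43 genes 5 rose and 2 fell, with a median of 0.04. Obp99b was the most abundant of those that rose, with a mean of 9.92 ± 0.15 in TREM2R47H/TYROBP heads and 8.91 ± 0.02 in control heads (SD, n = 3 each) and no overlap (1.01, standard error 0.13, adjusted p = 9.73e-06). Its rise was not called without the RIN term (0.24, adjusted p = 0.802). Obp99d next to it rose by 0.89, and Obp57a by 0.38. With control replicate 3 alone 1 member was higher and 2 were lower.

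DEGs were not spread evenly over the chromosomes. On the small chromosome 4, whose genes lie in heterochromatin, 17 of 108 genes rose and 1 fell, so that 16.7% were called, and the median change over its genes was 0.19. On the X 7 of 2245 genes rose and 58 fell (2.90% called, median -0.03), while on 2L, 2R, 3L and 3R between 3.96% and 4.95% were called. The excess on chromosome 4 rested on single libraries. It came to 37 genes upregulated without TREM2R47H/TYROBP replicate 1, 5 without replicate 2, 2 without replicate 3 and 5 without control replicate 3, 2 with control replicate 3 as the only control and 0 in a fit of the elav libraries alone. On the X the split was 4 against 21 with control replicate 3 alone and 18 against 58 without the RIN term.

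Several DEGs were direct neighbours. Within 2L from 2032519 to 2048054 lie CG42296 (-5.00), lectin-22C (-3.60), the RNA CR45298 (-2.38) and the kinetochore-associated gene Kebab (-2.49), all downregulated. Kebab was at -1.54, -1.33 and -1.71 in TREM2R47H/TYROBP heads, against 0.92, 1.13 and 0.82 in control heads (adjusted p = 5.45e-08). On 2R from 20870392 to 20882663 lie IM14, Ipk1 and Cib2, all upregulated. Ipk1, the kinase of the last step of inositol hexakisphosphate synthesis, was at 4.79, 4.96 and 4.77 in TREM2R47H/TYROBP heads, against 3.89, 3.88 and 3.83 in control heads (0.98 on the log2 scale, adjusted p = 9.74e-11). The change of Ipk1 was not called without the RIN term (0.52, adjusted p = 0.236). Counted in windows of 1 Mb, the most DEGs lay on 3R from 25000001 to 26000000, with 20 of 171 genes up and 6 down (15.2%), followed by 2L from 2000001 to 3000000 (15 of 145) and 2R from 20000001 to 21000000 (15 of 122).

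Flies with the common allele of the receptor, with 1 copy of LexAop2-TREM2-WT,TYROBP beside elav-gal4,Repo-LexA/Y (3 libraries, RIN 6.9 to 7.0), served to ask whether a change depended on the variant. Against these TREM2WT/TYROBP flies 124 genes were higher and 145 lower in TREM2R47H/TYROBP heads (0.868% and 1.02% of all genes, 1.88% together). This comparison uses the same TREM2R47H/TYROBP libraries as the first, so its values are given only side by side. For y, to, CG12164, CG4017, Osi1, resilin, TotA, TotC, Tep4, Cyp4p2 and Shab the difference from TREM2WT/TYROBP was not called, and its size was below 0.9 for each. It was called for several genes of 3R, the arm that held 109 of the 269. CG15510 was at 0.40 ± 0.23 in TREM2R47H/TYROBP, -4.31 ± 1.63 in TREM2WT/TYROBP and -6.13 ± 1.30 in control heads (SD, n = 3 each), 4.71 above TREM2WT/TYROBP (adjusted p = 0.00165). Desi was at 0.45 ± 0.15 in TREM2R47H/TYROBP, -3.73 ± 0.74 in TREM2WT/TYROBP and -1.60 ± 0.25 in control heads, so that it was 4.18 above TREM2WT/TYROBP (adjusted p = 6.28e-08).

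The 3R window named above held 16 genes called against TREM2WT/TYROBP. CR43847 was at -1.31, -1.26 and -1.89 in TREM2R47H/TYROBP heads, at -6.18, -6.13 and -6.10 in TREM2WT/TYROBP heads and at -6.25, -6.59 and -7.12 in control heads. CG31093 (4.11 above TREM2WT/TYROBP) and CR43632 (3.21) had the same pattern, and CG17195 (1.95, adjusted p = 0.0689) missed the threshold in this comparison. These 4 lie between 25776276 and 25797778 and had few or no reads in both other genotypes. GstD3 (0.70), CR46015 (2.22) and Obp99b (0.75) were higher and Cyp6d2 (-0.72) and Hsp70Bb (-0.47) lower than in TREM2WT/TYROBP heads. For a gene that lies near others that differ, an effect of the variant and a difference between the fly stocks cannot be told apart.

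**Figure D4:**
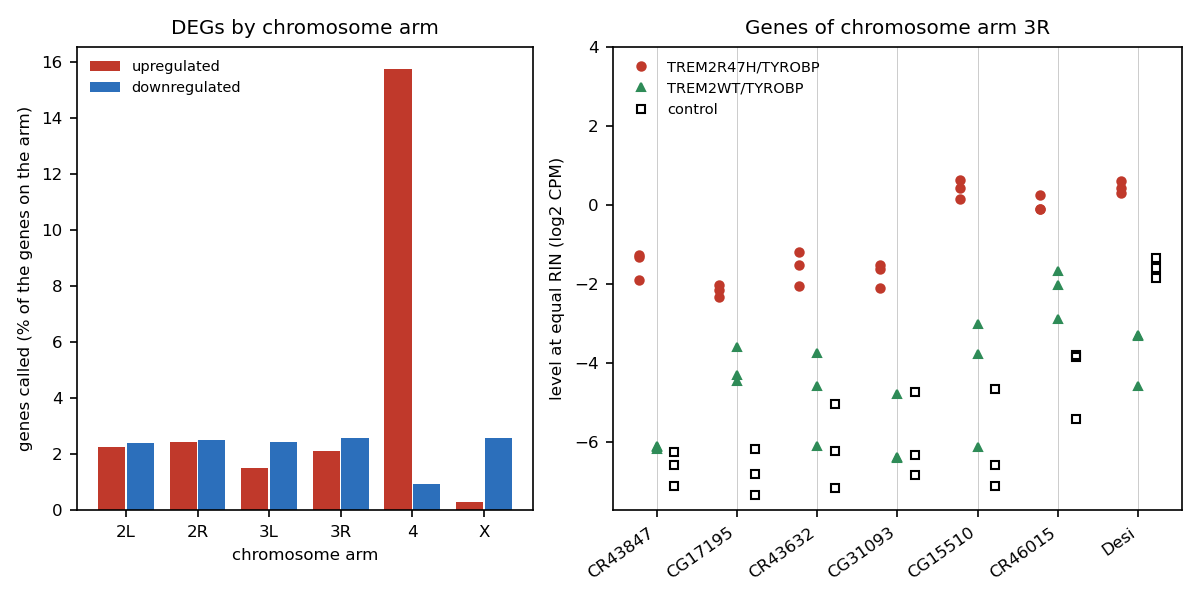
Left, share of the genes of each chromosome arm (y axis, %) that were upregulated (red) or downregulated (blue), from 15.7% upregulated on chromosome 4 to 0.312% on the X. Right, level at equal RIN (y axis, log2 CPM) of 7 genes of 3R in each library of TREM2R47H/TYROBP (red dots), TREM2WT/TYROBP (green triangles) and control (open squares) heads, where the TREM2R47H/TYROBP libraries lie above all others for each gene.

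Whether the same genes changed elsewhere was asked in 2 sets of libraries that share none with the first. All 3 comparisons came from the one fit of 35 libraries. Each gene thus had the same estimated spread and RIN slope in each, so the calls are not independent. In the first set TREM2R47H/TYROBP was added to flies with neuronal Aβ42 (LexAop2-TREM2-R47H,TYROBP over UAS-Aβ42 with elav-gal4,Repo-LexA/Y, RIN 6.6 to 6.9), and these were compared with flies with UAS-Aβ42 in 1 copy (RIN 6.6 to 6.9), 3 libraries each. Here the RIN ranges of the genotypes were the same. There were 469 upregulated and 410 downregulated genes (3.28% and 2.87% of all genes, 6.16% together), and 306 of the 630 DEGs were called here too, each in the same direction (135 up, 171 down). That is 48.6% of the first list and 34.8% of the second. In the second set the eye driver GMR-GAL4 took the place of elav-GAL4, with Repo-LexA/+ and GMR-gal4 over LexAop2-TREM2-R47H,TYROBP (RIN 5.6 to 6.9) against Repo-LexA/+ and GMR-gal4/+ (RIN 6.8 to 6.9), 3 libraries each. There were 404 upregulated and 419 downregulated genes (2.83% and 2.93%, 5.76% together), and 265 of the 630 DEGs had the same call (127 up, 138 down), which is 42.1% of the first list and 32.2% of the second, while 6 were called in the opposite direction. In all 3 comparisons 186 genes had the same call, 87 up and 99 down.

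CG12164 fell in each, with log2 fold changes of -4.59 in elav heads, -5.68 with Aβ42 and -5.60 in GMR heads. CG4017 (-3.98, -4.04 and -4.97), resilin (-2.01, -1.75 and -2.75), Osi1 (-5.25, -5.96 and -3.18) and Ance-2 (-4.76, -5.94 and -5.11) also fell in each. Tep4 rose by 0.74, 0.79 and 0.65, Cyp4p2 by 1.03, 0.91 and 0.98, and CG13083 by 1.5, 1.22 and 1.48. The changes of to were -3.52, -2.32 and -0.77, each called. The gene y rose by 5.18, 5.50 and 2.95. Its mean level was 1.18 ± 0.13 in GMR control heads and -1.29 ± 0.26 in elav control heads (SD, n = 3 each).

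Turandot genes were called in GMR heads, with 4 of 6 upregulated (TotA 1.48, TotC 1.80, TotM 2.38 and TotX 1.48), and not with Aβ42, where none of 6 was called (TotA 0.50, TotC 0.42, TotM 0.00). The difference between the effects without and with Aβ42 did not pass the test for TotA (adjusted p = 0.259), TotC (0.33) or TotM (0.364). Of 23 chitin genes 7 fell with Aβ42 and 3 in GMR heads. Of 83 cuticle genes 6 rose and 10 fell with Aβ42, and 0 rose and 15 fell in GMR heads. Of the 19 potassium channel genes none was called with Aβ42 and 1, Shab (-0.31), in GMR heads, with Sh at -0.18 and -0.13 and SK at -0.14 and -0.09. Drsl4 and Drsl5, of the Drosomycin family, were called in both other sets (Drsl4 1.13 with Aβ42 and 1.17 in GMR heads) and had changed by 0.37 (adjusted p = 0.0975) and 0.20 in elav heads. On chromosome 4 there were 5 upregulated and 3 downregulated genes with Aβ42 and 9 and 1 in GMR heads, and on the X 34 and 47 with Aβ42 and 32 and 48 in GMR heads.

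A test of the difference itself called 67 genes between elav and GMR heads (0.469% of all genes), 32 of them among the 630 DEGs. Of the 243 DEGs called in neither other set, 4 differed by that test between elav and GMR heads and 7 between flies without and with Aβ42 (0.672% of all genes by that second test), so for most of them a difference in effect was not shown. Neither other set had a called change of Yp1, Yp2 or Yp3, with Yp2 at -0.44 and 0.35.

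**Figure D5:**
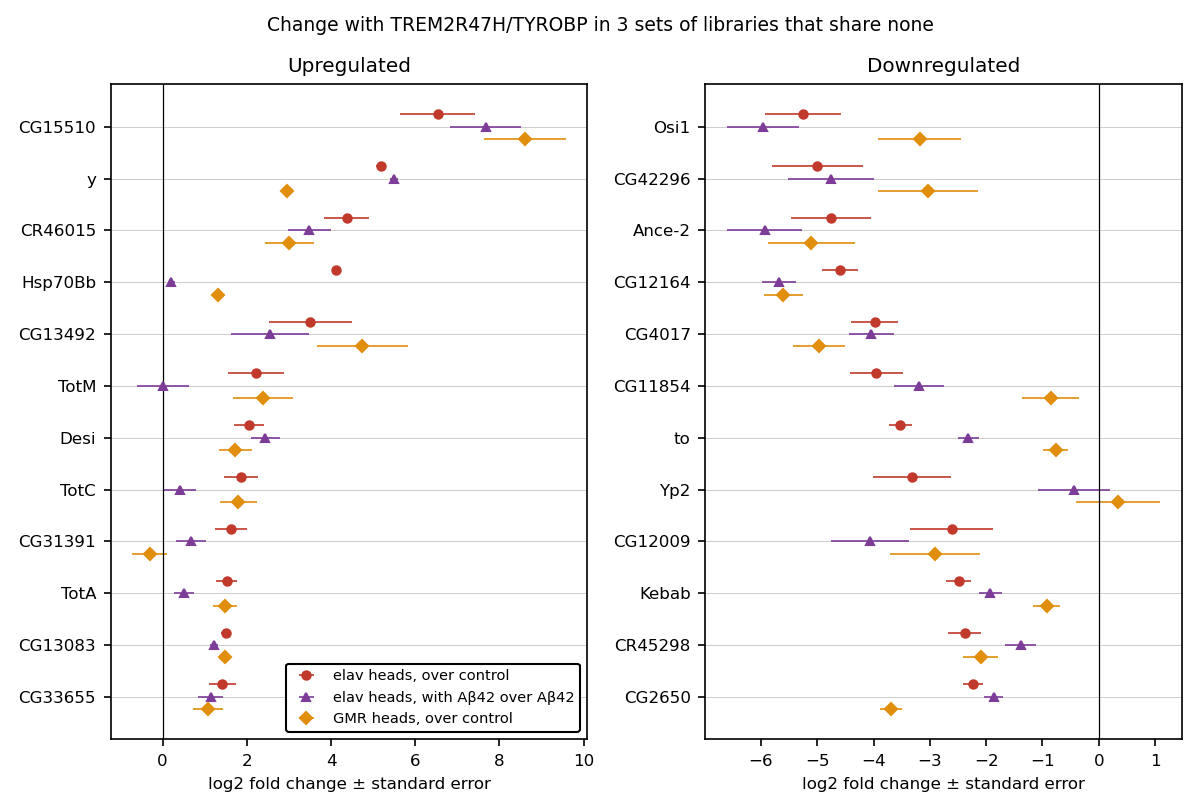
Log2 fold change with its standard error (x axis) of the 12 upregulated and 12 downregulated genes of largest change, for TREM2R47H/TYROBP over control in elav heads (red dots), with Aβ42 over Aβ42 alone (purple triangles) and over control in GMR heads (orange diamonds). CG12164, CG4017 and CG13083 lie at like values in each, whereas Hsp70Bb stands at 4.12 in elav heads and at 0.21 and 1.32 in the others.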

How the data were processed

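Heads of 12 genotypes gave 35 libraries. Per the study's methods, ribosomal RNA-depleted single-end reads were aligned with STAR 2.5.0b to BDGP6, counted per Ensembl gene with featureCounts, scaled by TMM after genes that never reached 5 reads were dropped. The deposited values are log2 CPM that the authors then adjusted for RIN. Over all 35 libraries they have no slope on RIN, but the slopes within genotypes had a median size of 0.103 per unit of RIN, so RIN entered the model again. The model (limma 3.58.1, R 4.3.3) held 12 genotypes and RIN, with 22 residual and 1.05 prior degrees of freedom and Benjamini-Hochberg adjustment over 14279 genes. It was tested on simulated data. Printed levels are deposited values less the fitted slope times the distance of RIN from its mean of 6.71. Coordinates are those of the files (BDGP6), and of 14279 gene identifiers 14019 are in the Ensembl annotation used here.

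Named genes were the 12 largest rises and falls among separated DEGs with a mean of at least 0, up to 4 DEGs of each of 51 gene lists (all members of lists of 8 or fewer), marker and construct genes, genes the study names, up to 4 DEGs of each of the 3 windows of 1 Mb with most DEGs, and the largest rise and fall at any level. Drsl4 and Drsl5, Cyp6a2, Cyp4d1 and the clock genes named as not called stand beside a list's count. The members and lists were chosen with earlier results of these data known. Alternatives were no RIN term, fewer libraries, a filter on low levels, 1 added before log2, other scalings, another variance model, a replicate block, other thresholds and each library left out. A yolk protein covariate and control replicate 3 as the only control were added after seeing the data. Replicate numbers do not pair the libraries (correlations of 0.00263 to 0.0152). No value column was left unmapped. The table holds no counts, so depth is unknown and count models could not be used. No sequence of these genes was used here.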

Additional observations from a re-analysis of the deposited data

Results flagged for a closer look

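The change with TREM2R47H/TYROBP differed between elav and GMR heads for 12 of the named DEGs by limma's test of the difference (elav less GMR, Benjamini-Hochberg). The largest was for Osi7, a gene of cuticle-secreting cells, at -1.55 in elav heads and 1.84 in GMR heads, a difference of -3.39 (adjusted p = 0.00196). Hsp70Bb differed by 2.80 (4.12 against 1.32, adjusted p = 4.21e-13), to by -2.76 (-3.52 against -0.77, adjusted p = 2.78e-05) and y by 2.23 (5.18 against 2.95, adjusted p = 1.21e-08). Cib2 rose in elav heads and fell in GMR heads (1.06 against -0.98, difference 2.03, adjusted p = 0.00149), and its neighbour Ipk1 differed by 0.86 (0.98 against 0.12, adjusted p = 1.82e-05). Kebab differed by -1.56 (adjusted p = 0.0449), CG2650 by 1.46 (adjusted p = 0.0151), and the hemocyte receptor gene NimC1 by 1.48 (-0.68 against -2.17, adjusted p = 0.000114). CG16898 differed by 1.34 (0.78 against -0.56, adjusted p = 0.0218), Ugt86Di by -1.11 (-0.56 against 0.55, adjusted p = 0.0175) and Dat, which acetylates dopamine, by -0.42 (-0.49 against -0.07, adjusted p = 0.0125). The elav comparison has RIN of 6.9 to 7.1 against 6.4 to 6.8 and the GMR comparison 5.6 to 6.9 against 6.8 to 6.9. The part of RIN in these differences was not tested gene by gene, and without the RIN term 186 in place of 67 genes differed.

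Between flies without and with Aβ42 a test added after the data were seen called 5 named DEGs. Hsp70Bb differed by 3.91 (4.12 without Aβ42 against 0.21 with it, adjusted p = 6.31e-18), where the Aβ42 flies carry a further transgene in both genotypes. The others were CG17195, at a level of few reads (4.09, adjusted p = 0.0205), to (-1.20, adjusted p = 0.034), Cyp6d2 (-1.03, with a change of 1.04 without and 2.08 with Aβ42, adjusted p = 0.00757) and Ance-4 (-0.36, adjusted p = 0.0162).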

How the results depend on the processing

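Depth is unknown, RIN does not overlap between the genotypes compared, control replicates 1 and 2 hold more yolk protein RNA than replicate 3, and the control carries no insertion. The 630 DEGs (274 up, 356 down) came to 395 to 696 when each library was left out (159 to 360 up, 227 to 384 down), with all 630 signs kept in each of these fits. Modelled from the 18 elav libraries they came to 103 (59 up, 44 down), from the 6 libraries alone to 0 (0 up, 0 down), with a yolk protein covariate to 325 (144 up, 181 down) and with control replicate 3 as the only control to 284 (131 up, 153 down). A log2 fold change beyond 1 left 139 (65 up, 74 down) and no fold threshold gave 1063 (450 up, 613 down). A low-level filter, 1 added before log2, another variance model, quantile scaling, median centring and no RIN term gave 585 to 723. The 723 (306 up, 417 down) came without the RIN term. Of these 504 were among the 630 with the same direction, and 625 of the 630 kept their sign. The replicate block with RIN gave 574, of which 566 were among the 630, and among the counts of gene lists it changed only that of PGRP, whose called gene PGRP-SD was lost, while the other named DEGs it lost were CG3216 and CG34447 (adjusted p = 0.0621 and 0.0563). The 269 genes against TREM2WT/TYROBP became 77 beyond 1, 427 with no fold threshold, 6 from the 6 libraries alone and 176 to 384 with a library left out. The 879 genes with Aβ42 became 204, 1815, 84 and 703 to 937, and the 823 genes in GMR heads 194, 1398, 8 and 581 to 1046, with 443 from the GMR libraries. The 67 genes that differed between elav and GMR heads became 28 beyond 1, 186 without the RIN term, 5 from the 12 libraries compared and 36 to 107. Without GMR TREM2R47H/TYROBP replicate 1 they were 107 and without elav control replicate 1 36, and without TREM2WT/TYROBP replicate 3 the 269 were 176. Without TREM2R47H/TYROBP replicate 3 the upregulated genes were 159, without control replicate 3 168 and 227 genes rose and fell. Of 102 named DEGs, 23 kept their call in every fit that tested them but that of the 6 libraries alone (CG4017 and Osi1 are among those the low-level filter left out), among them y, to, CG12164, CG4017, resilin, Tep4, Cyp4p2, Cyp6d2, GstD3 and Osi1. Signs turned for Yp3 without the RIN term (0.78), for Yp1 with the yolk covariate (0.12) or control replicate 3 alone (0.0269) and for nAChRbeta1 from the 6 libraries alone (0.00272). The cause of these shifts was not tested, beyond the fewer libraries and genes in the smaller fits.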

Other observations

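Some genes of the catecholamine and pigment pathway were called beside y, which was also listed as a check of the constructs. Ddc, the decarboxylase that makes dopamine, was at 7.80, 7.84 and 7.88 in TREM2R47H/TYROBP heads, against 7.51, 7.52 and 7.47 in control heads, a change of 0.34 (standard error 0.04, limma adjusted p = 1.8e-06). Dat, the acetyltransferase that inactivates dopamine, was at 7.34, 7.16 and 7.10 in TREM2R47H/TYROBP heads, against 7.61, 7.73 and 7.73 in control heads (-0.49, adjusted p = 5.71e-07). The genotypes do not overlap in either, and yellow-d2 of the yellow family fell (-1.02). Of 21 pigment genes these and y were the 4 called. The change of Ddc was 0.24 with Aβ42 and 0.26 in GMR heads, where it was not called.

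A few members of the lists named next were called, each of them downregulated, where 4.41% of all genes were called in either direction. The nicotinic receptor list given above also held a rise. The insulin-binding protein gene ImpL2 changed by -0.41 (adjusted p = 0.0012), the only one called of 11 insulin pathway genes. Of 10 basement membrane genes Cg25C, a collagen IV chain, changed by -0.41 and LanB2, a laminin chain, by -0.29, and none rose (1 fell without control replicate 3). Of 18 genes of JNK signalling, p53 and cell death kay (-0.28, the fly Fos), Gadd45 (-0.52) and Mmp1 (-0.28, a matrix metalloprotease) fell, and without control replicate 3 only 1 of them did. Of 18 lipid carrier and storage genes the lipoprotein gene cv-d fell (-0.36). Among 11 angiotensin-converting enzyme and neprilysin genes Ance-2, Ance-4 (-0.43) and Ance (-0.30) fell, where Ance and Ance-2 are neighbours on 2L and no neprilysin gene was called. Of 8 phosphatidate phosphatase genes 3 fell, CG11437 (-0.73), CG11425 (-0.51) and CG11438 (-0.32), and they lie within 3L from 22465619 to 22475792. These 3 were lower than in TREM2WT/TYROBP heads too (-1.45, -0.75 and -0.28). None of the 8 was called without control replicate 3, and 1 was called without control replicate 2 or with control replicate 3 as the only control. The call of CG11425 was lost without the RIN term (adjusted p = 0.176). TpnC4, a muscle marker that was not called, stood at 3.10 in control replicate 3 and between -3.46 and -2.57 in the 5 other libraries.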
